A study of Mus musculus with 20 samples.

Results

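The growing plantaris tendons of mice with a tamoxifen-activated recombinase driven by Scx were compared, at day 14 of a growth stimulus, with the resting tendons of mice that lack the recombinase. The comparison takes 8 of the 20 libraries, 4 of KO day 14 and 4 of WT day 0, chosen by the genotype, stimulus and day in their labels. KO day 14 mice were ScxCreERT2+/+ IGF1Rflox/flox, had tamoxifen and were under the growth stimulus for 14 days. WT day 0 mice were ScxCreERT2-/- IGF1Rflox/flox without tamoxifen and without a growth stimulus. Floxed Igf1r alleles are thus shared by both groups, while recombinase, tamoxifen and growth stimulus change together and cannot be told apart in this comparison. WT day 14 mice (ScxCreERT2-/- IGF1Rflox/flox, with tamoxifen and the stimulus) and KO day 7 mice (ScxCreERT2+/+ IGF1Rflox/flox, with both, at day 7) are used only where they are named. CreERT2 driven by Scx acts in tenocytes and other cells that express Scx, so the remaining cells of the tendon keep Igf1r. The sources used here give no ages or sexes. The labels do not say that the replicates are separate animals, so each p-value rests on the spread among libraries, which can be partly or wholly technical.

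Tendon is built mainly of fibrils of type I collagen that tenocytes, its fibroblasts, secrete, cross-link and bind to small proteoglycans. Under a heavier load, adult tendon grows by adding matrix and cells, largely from the looser tissue at its surface. IGF1 binds the receptor tyrosine kinase IGF1R, which signals through IRS proteins, PI3K, Akt and mTOR toward protein synthesis and keeps FoxO transcription factors out of the nucleus. Scx encodes scleraxis, a transcription factor of tendon cells that drives type I collagen genes.

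Total counts ran from 36.5 to 43.1 M in the KO day 14 libraries and from 32.3 to 58.9 M in the WT day 0 libraries, and 18918 of 24885 genes were tested. On the first principal component of all 20 libraries, which held 51.5% of the variance, the KO day 14 libraries lay between -5.17 and 26.3 and the WT day 0 libraries between -139 and -113. The tendon markers Tnmd, Fmod, Thbs4 and Mkx were read in all 8 libraries. Skeletal muscle fibre markers were read as well. They took 1.26, 1.92, 0.204 and 3.02 percent of all counts in the KO day 14 libraries, in the order of their replicate numbers, and 5.60, 3.40, 7.29 and 7.75 percent in the WT day 0 libraries. This share was below every WT day 0 library in all 4 KO day 14 libraries, and their replicate 3 had the lowest of all. In such bulk samples, fewer cells of a type and less RNA per cell cannot be told apart.

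Values below are CPM (each gene's counts scaled to a common library size) after TMM scaling, given in the order of the replicate numbers, and a log2 change is KO day 14 over WT day 0 with its standard error. A gene is called higher or lower at a Benjamini-Hochberg adjusted p below 0.05 in edgeR's quasi-likelihood test over all tested genes. At that level 50.3% of the tested genes were called: 4796 genes (25.4% of those tested) were higher and 4723 (25.0%) were lower in KO day 14 than in WT day 0. Of these, 1849 (9.77%) were at least 2-fold higher and 2112 (11.2%) at least 2-fold lower. For 8823 genes (46.6%) the CPM of both groups did not overlap. Because so many genes were called, the shares of 25.4% and 25.0% are what any gene group has to be read against. Over all tested genes the median log2 change was -0.00039.

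The genes with the largest rises included several secreted proteins of activated fibroblasts. Genes entered the 15 largest rises and falls only if they were called and their CPM did not overlap between groups. For them the call and the separation are thus no further support. The same holds for genes taken by largest change from the other comparisons. C1qtnf3, which encodes a secreted C1q and TNF related protein, had 2062, 1439.7, 2046 and 1733 CPM in KO day 14 libraries, against 8.53, 8.10, 8.87 and 6.84 CPM in WT day 0 libraries. Cthrc1, a secreted collagen triple helix repeat protein, had 641, 561, 607 and 564 CPM in KO day 14, against 3.33, 3.22, 3.62 and 2.38 CPM in WT day 0. Every KO day 14 library stood far above every WT day 0 library for both genes, with log2 changes of 7.81 ± 0.39 (adjusted p = 3.67e-11) and 7.56 ± 0.24 (adjusted p = 2.1e-14). Lrrc15, a membrane protein of activated fibroblasts, and Adam12, a membrane metalloprotease, rose (log2 changes 7.30 ± 0.25 and 5.98 ± 0.22). Fbn2, the fibrillin of growing microfibrils, read 210.2, 208, 204 and 209 CPM in KO day 14 libraries, against 1.62, 1.98, 2.19 and 2.65 CPM in WT day 0 libraries, and the KO day 14 libraries were almost level with each other (log2 change 6.62 ± 0.24). Tnn, a tenascin, rose (log2 change 6.57 ± 0.43), and the serine protease gene Klk1 (log2 change 6.79 ± 0.72). Pgr, the progesterone receptor, had 6.58, 1.87, 12.6 and 3.42 CPM in KO day 14 and only 2 counts over the 4 WT day 0 libraries together, against 842 counts in KO day 14. Its ratio of CPM was 551, with a 95% counting interval of 152 to 4558 that covers counting error only. Agtr2, the angiotensin II type 2 receptor, and the fatty acid binding protein gene Fabp2 also stood among the 15 largest rises (log2 changes 6.16 ± 0.50 and 8.45 ± 0.52).

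Among the 15 largest falls, several genes are best known from skin and its glands rather than from tendon. Odf3l2, an outer dense fibre gene, had 0.0593, 0.207, 0.0297 and 0 CPM in KO day 14 libraries, against 38, 17.4, 49.5 and 46.4 CPM in WT day 0 libraries. It was near 0 in every KO day 14 library and well above that in every WT day 0 library (log2 change -8.99 ± 0.79, adjusted p = 1.03e-07). Within WT day 0, Odf3l2 was lowest in replicate 2, which also had the lowest muscle share, and it did not follow the order of Krt2 below. The keratin gene Krt2 had 0.207, 0, 0.327 and 0.102 CPM in KO day 14 libraries, against 1.62, 8.08, 1.85 and 39.9 CPM in WT day 0 libraries, where replicate 4 was highest. Krt14 was called lower (log2 change -6.06 ± 2.38, adjusted p = 0.0436) but lost that call in limma-voom (adjusted p = 0.238), with the muscle score (adjusted p = 0.103) and with no filter (adjusted p = 0.0605), and DESeq2 gave it no adjusted p. With 1 library left out it lost the call without any 1 of the KO day 14 libraries (adjusted p = 0.0896, 0.0857, 0.0865 and 0.0977) and without WT day 0 replicate 1, 2 or 4 (adjusted p = 0.0523, 0.0537 and 0.117). Scd3, a stearoyl-CoA desaturase, and Fa2h, which hydroxylates fatty acids, fell (log2 changes -6.35 ± 0.70 and -5.74 ± 0.90), and the serine protease inhibitor genes Serpina3b and Serpina3j, close relatives whose reads may be shared (log2 changes -6.44 ± 0.93 and -6.44 ± 0.94). Of the 16 keratinocyte and skin markers tested, 7 were lower (12 with the compared groups fitted alone), and together they took 0.00508, 0.00476, 0.00533 and 0.00661 percent of counts in KO day 14 and 0.0101, 0.0159, 0.00854 and 0.0266 percent in WT day 0. WT day 0 replicate 4 had the highest share. The parts of skin RNA and of muscle RNA in these falls were not tested. The albumin gene Alb (log2 change -5.61 ± 0.43) and Myh4, the fast IIb myosin heavy chain, were in the same list of falls.

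**Figure D1:**
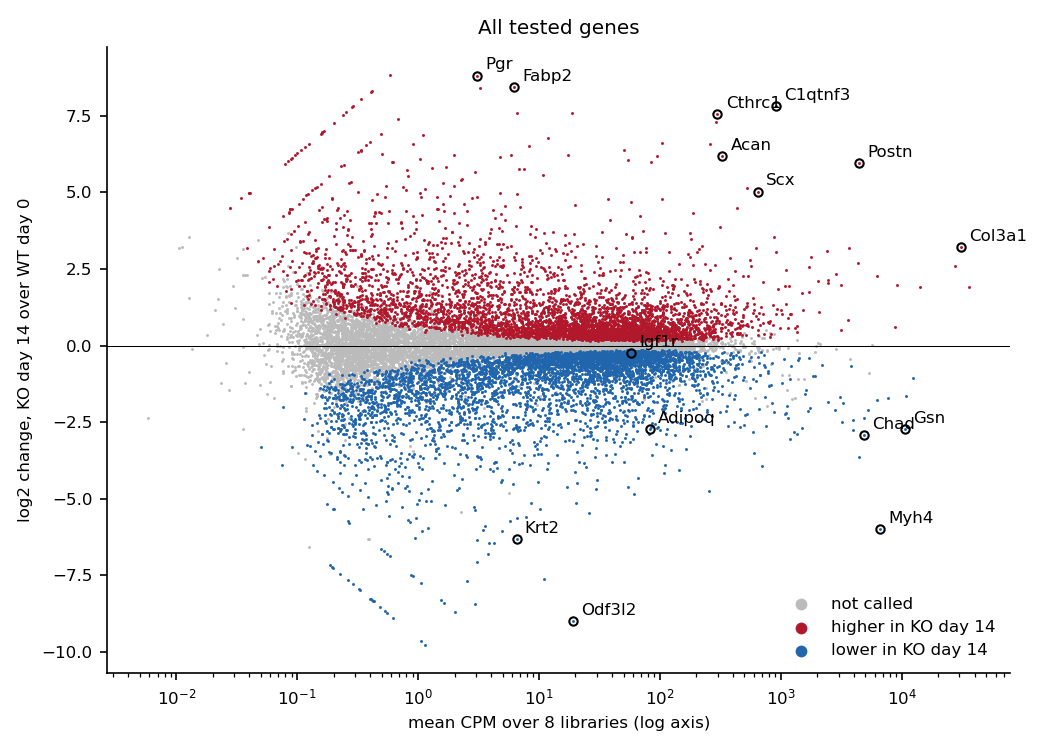
Each point is 1 of the 18918 tested genes, with its mean CPM over the 8 libraries on a log axis and its log2 change (KO day 14 over WT day 0) on the vertical axis; genes called higher and lower are coloured. The 4796 higher and 4723 lower calls are nearly balanced. Most of the named genes lie toward the outer edges, while Igf1r lies close to the line of no change.

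All libraries had reads of Igf1r, the gene meant to be deleted. Igf1r (ENSMUSG00000005533; chr7:67952827-68233668, plus strand, GRCm38) had 49.8, 52.3, 60.3 and 49.8 CPM in KO day 14 libraries, against 63.1, 70.9, 60.5 and 56.3 CPM in WT day 0 libraries. The groups overlapped, because KO day 14 replicate 3 stood above WT day 0 replicate 4. Means were 53.1 ± 5.0 CPM in KO day 14 and 62.7 ± 6.13 CPM in WT day 0 (SD, n = 4 each; two-sided exact permutation test, p = 0.0571, where 4 against 4 libraries cannot give less than 0.0286). In edgeR's test the log2 change of -0.24 ± 0.08 was called (adjusted p = 0.0189), and the authors' deposited table gives -0.25 (FDR 0.0102). Without KO day 14 replicate 1 or 4, or WT day 0 replicate 2, the call was lost (adjusted p = 0.0628, 0.0625 and 0.0931). At the same day and treatment, the libraries labelled KO day 14 had more Igf1r than the libraries labelled WT day 14, with 53.1 ± 5.0 CPM against 45.3 ± 3.63 CPM (n = 4 each; two-sided exact permutation test, p = 0.0286). With CPM from the total count alone, this difference was 3.77 CPM and its exact permutation p was 0.229. In edgeR's test this difference was not called (log2 0.23 ± 0.08, adjusted p = 0.162). The whole-tendon level of Igf1r thus does not set the libraries labelled KO below those labelled WT at day 14. Counts per gene do not show which exons were read, so they do not tell whether an exon is missing.

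Scx, the gene that drives the recombinase, changed far more. Scx (ENSMUSG00000034161; chr15:76457452-76459458, plus strand, GRCm38) had 1294, 885, 860.2 and 1958 CPM in KO day 14 libraries, against 40.8, 45.8, 35.5 and 31.4 CPM in WT day 0 libraries. Every KO day 14 library lay above every WT day 0 library (means 1249 ± 513 and 38.4 ± 6.27 CPM, SD, n = 4 each; two-sided exact permutation test, p = 0.0286; log2 change 5.02 ± 0.32, adjusted p = 1.11e-09). Libraries labelled WT day 14, which share tamoxifen and stimulus but have no CreERT2, had 121, 142, 125 and 70.3 CPM, so that KO day 14 was higher than WT day 14 by 3.45 ± 0.30 on the log2 scale (adjusted p = 1.73e-06). Scx sits within an intron of Bop1, a ribosome biogenesis gene on the opposite strand (chr15:76452989-76477277). Bop1 had 477, 229, 289 and 516 CPM in KO day 14, against 41.9, 43.7, 40.2 and 43.3 CPM in WT day 0, without overlap (log2 change 3.16 ± 0.23). No source used here gives the strand setting of the counts, so the reads of these overlapping genes cannot be told apart.

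**Figure D2:**
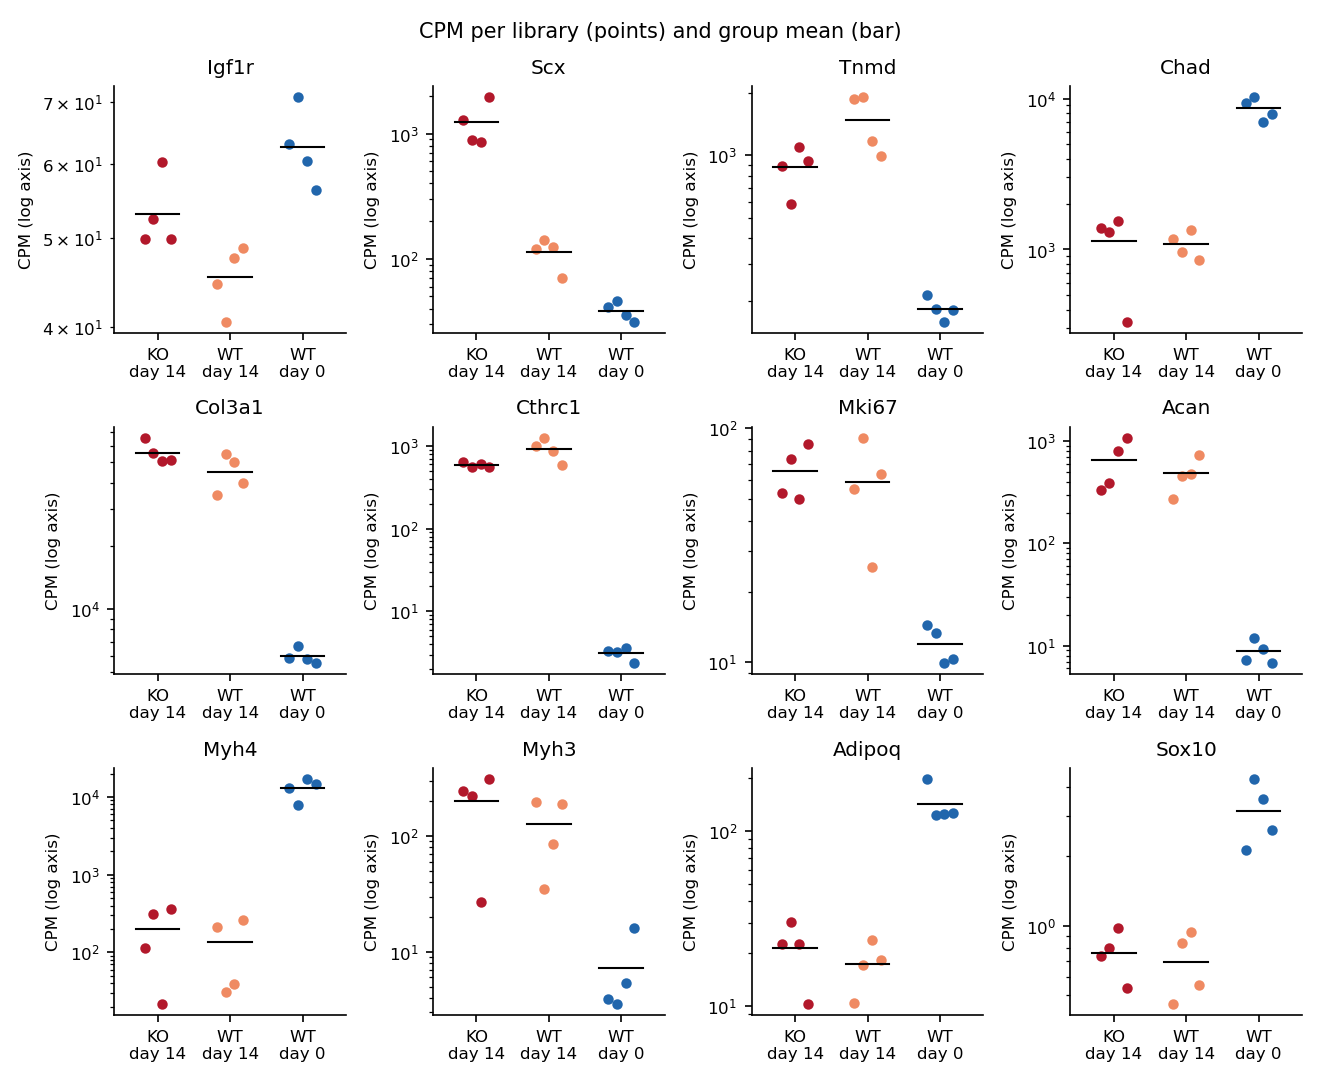
CPM per library on log axes for 12 genes, with KO day 14, WT day 14 and WT day 0 from left to right; points are libraries and bars are means (n = 4 each). Igf1r overlaps between KO day 14 and WT day 0, while Scx, Col3a1, Cthrc1, Mki67 and Myh3 stand higher in all KO day 14 libraries and Chad, Myh4, Adipoq and Sox10 lower.

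Genes of the IGF system moved in both directions. Of 19 ligands, receptors and binding proteins tested, 9 were higher and 7 lower, with a median log2 change of 0.32. Igf1, the ligand, had 612, 416, 648 and 684 CPM in KO day 14 libraries, against 250.3, 247, 261 and 232 CPM in WT day 0 libraries. The lowest KO day 14 library, replicate 2, was well above all WT day 0 libraries (log2 change 1.25 ± 0.16, adjusted p = 4.05e-06). Igf2, the fetal ligand, was low throughout but higher in KO day 14 (5.36, 4.18, 2.05 and 8.01 CPM) than in WT day 0 (1.07, 1.19, 0.833 and 0.818 CPM; log2 change 2.32 ± 0.51). Pappa, the protease that cleaves IGF binding proteins, had 22.5, 20.5, 50.5 and 51.1 CPM in KO day 14, against 3.24, 3.46, 2.62 and 2.14 CPM in WT day 0. Its replicates 3 and 4 were above 1 and 2 in KO day 14, and all stood above WT day 0 (log2 change 3.65 ± 0.37). Stc1, an inhibitor of that protease, rose (log2 change 2.01 ± 0.24), and Grb10, an adaptor that restrains insulin and IGF1 receptor signalling (log2 change 2.46 ± 0.11). Igf2r, which clears IGF2, rose (log2 change 1.06 ± 0.09). The binding protein genes differed: Igfbp5 had 1918, 1526, 2230.4 and 1199 CPM in KO day 14, against 2587, 2441, 2949 and 2692 CPM in WT day 0, lower in all 4 libraries (log2 change -0.63 ± 0.19). Igfbp6 fell (log2 change -0.91 ± 0.20), and Igfbp3 was not called (log2 change 0.08 ± 0.30, adjusted p = 0.845), with KO day 14 libraries both above and below the WT day 0 range.

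Downstream, changes of PI3K, Akt and mTOR genes were mostly small. Of 25 tested, 6 were higher and 10 lower (median -0.14). Pik3r1, the main regulatory subunit of PI3K, had 184, 161, 158 and 127 CPM in KO day 14, against 331, 335, 297 and 281 CPM in WT day 0, lower in every library (log2 change -0.98 ± 0.15). The related subunit gene Pik3r3 moved the other way, with 51.4, 35.5, 51.9 and 52.0 CPM in KO day 14 and 9.14, 7.91, 10.2 and 8.57 CPM in WT day 0 (log2 change 2.41 ± 0.23). Akt1 rose (log2 change 0.39 ± 0.10) and Mtor fell (log2 change -0.47 ± 0.10). The sestrin genes Sesn2 and Sesn3, whose proteins restrain mTORC1, rose (log2 changes 1.5 ± 0.14 and 1.06 ± 0.15).

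FoxO factors and genes that respond to them were mostly lower. Of 21, 14 were lower and 2 higher, with a median of -0.62. The sestrin gene Sesn3, also named above, was among the 2 higher members (log2 change 1.06). Foxo1 had 62.9, 58.2, 69.0 and 60.2 CPM in KO day 14 libraries, against 91.6, 107, 98.1 and 86.6 CPM in WT day 0 libraries (log2 change -0.62 ± 0.14), and Foxo4 fell (log2 change -1.25 ± 0.13). Foxo3 was not called (log2 change 0.30 ± 0.16, adjusted p = 0.126), except with the compared groups fitted alone (adjusted p = 0.00894). Bcl6, a transcriptional repressor, had 43.8, 45.2, 48.0 and 40.7 CPM in KO day 14, against 168, 211, 149.5 and 162 CPM in WT day 0. Txnip, which restrains glucose uptake, had 417, 340.3, 296 and 191 CPM in KO day 14, against 797, 881, 774 and 788 CPM in WT day 0. Both groups stood apart for each gene (log2 changes -1.96 ± 0.12 and -1.38 ± 0.17), and KO day 14 replicate 4 had the least Txnip. Klf15 fell (log2 change -2.22 ± 0.40) and Cited2 (log2 change -0.93 ± 0.13). In skeletal muscle, where several of these genes are well known, Klf15 and the ubiquitin ligase gene Trim63 are also expressed, and the muscle share above was lower in KO day 14 too. With a muscle score as a covariate, 14 members of the list were lower and 2 higher. That score averages fibre markers of which 5 were higher and 11 lower, so it need not follow muscle content. The part of muscle RNA in these falls was not tested.

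FoxO factors bind TGTTTAC, the letters searched on both strands (GTAAACA on the other) in RefSeq promoters of GRCm38.p6, from 250 bases before to 50 after each gene's start. These letters stood in 3 of 22 promoters of the list (13.6%, 19 genes matched), against 3.65% of all 32851 promoters. The Txnip promoter (chr3:96557707-96558006, plus strand) and the Trim63 promoter (chr4:134314870-134315169, plus strand) hold them and are shown because these genes fell. The remaining matching promoter of the list is not shown. Because the choice followed direction, it shows no link between the letters and a fall. Capitals mark the match.
Txnip: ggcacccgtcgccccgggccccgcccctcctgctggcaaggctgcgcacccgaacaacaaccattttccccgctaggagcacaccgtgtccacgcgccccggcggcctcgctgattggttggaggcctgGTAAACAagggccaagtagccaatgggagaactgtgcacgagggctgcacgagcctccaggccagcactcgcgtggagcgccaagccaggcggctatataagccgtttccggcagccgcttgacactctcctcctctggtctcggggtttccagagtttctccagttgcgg
Trim63: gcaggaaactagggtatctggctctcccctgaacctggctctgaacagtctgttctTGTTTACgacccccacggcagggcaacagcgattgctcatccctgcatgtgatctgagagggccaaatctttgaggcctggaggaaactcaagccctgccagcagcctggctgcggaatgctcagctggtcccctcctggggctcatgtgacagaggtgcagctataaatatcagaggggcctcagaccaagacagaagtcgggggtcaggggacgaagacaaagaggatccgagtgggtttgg
A match describes the letters in this window only and is not a measured binding site.

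Tendon genes were split. Of 18 tenogenic genes tested, 7 were higher and 5 lower (median 0.06). Tnmd, tenomodulin, a membrane protein of mature tenocytes, had 892, 585, 1103 and 942 CPM in KO day 14 libraries, against 212, 182, 158 and 181 CPM in WT day 0 libraries. All KO day 14 libraries were above all WT day 0 libraries (log2 change 2.27 ± 0.28, adjusted p = 3.35e-06). Mkx, mohawk, a transcription factor of tendon, had 40.1, 36.6, 45.9 and 38.3 CPM in KO day 14, against 55.2, 59.1, 46.0 and 46.2 CPM in WT day 0 (log2 change -0.36 ± 0.13); its highest KO day 14 library lay just below the lowest WT day 0 library, and its call was lost with the muscle score (adjusted p = 0.0743), without KO day 14 replicate 1, 2 or 4 (adjusted p = 0.0542, 0.0815 and 0.0677) and without WT day 0 replicate 1 or 2 (adjusted p = 0.0765 and 0.103). Thbs4, a thrombospondin of tendon, rose (log2 change 0.60 ± 0.13), and the related Comp fell (log2 change -0.66 ± 0.21). Fmod, fibromodulin, was not called, with 5709, 5059, 7141 and 5113 CPM in KO day 14 and 5226, 6208, 5598 and 5563 CPM in WT day 0 and overlapping groups (log2 change 0.03 ± 0.17, adjusted p = 0.911). Chad, chondroadherin, had 1379, 1304, 1553 and 332 CPM in KO day 14, against 9382, 10207, 6999.6 and 7942 CPM in WT day 0. Replicate 4 was far below the other KO day 14 libraries, and all 4 lay below WT day 0 (log2 change -2.92 ± 0.38).

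The collagens of the fibril were the most abundant of the higher genes. Of 20 fibrillar and associated collagen genes tested, 16 were higher and 2 lower, with a median log2 change of 2.17. The list took 19.2, 17.3, 17.7 and 17.8 percent of all counts in KO day 14 libraries and 3.63, 4.01, 3.22 and 3.29 percent in WT day 0 libraries. Col1a1 (chr11:94936224-94953042, GRCm38) encodes a chain of type I collagen and had 47126, 45842, 47399 and 49754 CPM in KO day 14, against 7861, 8155, 7257 and 8268 CPM in WT day 0. Col3a1 (chr1:45311538-45349706), of type III collagen, which marks young and repairing matrix, had 65209.7, 55209, 50877 and 51098 CPM in KO day 14, against 5821, 6696, 5799.5 and 5544 CPM in WT day 0. Neither gene's groups came near each other (log2 changes 2.59 ± 0.26, adjusted p = 1.56e-07, and 3.22 ± 0.15, adjusted p = 4.17e-12). Col5a1, of the type V collagen that starts fibrils, had 6592, 6378, 6632 and 6788 CPM in KO day 14, against 671, 781, 766 and 702 CPM in WT day 0 (log2 change 3.18 ± 0.19). Col8a1, of short-chain type VIII collagen, rose most, with 1129.9, 975, 1032 and 966 CPM in KO day 14 and 26.8, 34.0, 28.2 and 25.6 CPM in WT day 0. Its log2 change was 5.16 ± 0.24, more than those of Col6a3 (3.09 ± 0.16), of Col12a1 (2.58 ± 0.19) and of Col14a1 (2.27 ± 0.18), which bind to fibril surfaces or form microfibrils.

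The enzymes that make and cross-link collagen rose with it. Of 26 hydroxylase, chaperone and cross-linking genes, 23 were higher and 2 lower (median 1.18). P4ha3, a prolyl hydroxylase subunit, had 122, 137, 133 and 148 CPM in KO day 14 libraries, against 8.99, 10.8, 11.1 and 9.27 CPM in WT day 0 libraries. Serpinh1, the collagen chaperone HSP47, had 1278, 1441, 1613 and 1561 CPM in KO day 14, against 457, 429, 371 and 375 CPM in WT day 0. The groups were far apart for each (log2 changes 3.74 ± 0.12 and 1.85 ± 0.11). Loxl2, a lysyl oxidase, rose (log2 change 1.99 ± 0.13), and Bmp1, the procollagen C-proteinase (log2 change 1.20 ± 0.10). Lox rose less, with 1447, 1917, 1593 and 1696 CPM in KO day 14 and 1056, 1396, 884 and 909 CPM in WT day 0; its groups did not overlap, but KO day 14 replicate 1 lay just above WT day 0 replicate 2 (log2 change 0.65 ± 0.15).

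Matrix glycoproteins and proteoglycans changed with more spread. Of 30 tested, 20 were higher and 5 lower (median 1.48). Postn, periostin, which binds collagen in growing matrix, had 9673, 8964, 7489 and 8598 CPM in KO day 14 libraries, against 141, 114, 108 and 191 CPM in WT day 0 libraries. All KO day 14 libraries were far above (log2 change 5.97 ± 0.26, adjusted p = 2.13e-12). Lum, lumican, had 3644, 2595, 3437 and 2897 CPM in KO day 14, against 421, 459, 463 and 334 CPM in WT day 0 (log2 change 2.91 ± 0.16). The tenascin gene Tnc rose (log2 change 3.56 ± 0.14), biglycan (Bgn; log2 change 2.28 ± 0.12) and fibronectin (Fn1; log2 change 1.99 ± 0.16). Of elastic fibre and microfibril genes, 12 of 17 were higher and 2 lower (median 1.35). Eln, elastin, had 1441, 1534, 896 and 593 CPM in KO day 14, against 113, 126, 132 and 122 CPM in WT day 0; replicates 3 and 4 had less than replicates 1 and 2, and all exceeded WT day 0 (log2 change 3.18 ± 0.26). The microfibril genes Mfap4, Mfap2 and Fbn1 rose (log2 changes 3.04 ± 0.17, 3.05 ± 0.18 and 1.70 ± 0.12).

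Proteases that cut matrix rose, and their inhibitors differed. Of 28 tested, 21 were higher and 4 lower (median 1.58). Mmp13, a collagenase, had 62.7, 26.5, 106 and 233 CPM in KO day 14 libraries, against 1.56, 1.69, 2.02 and 1.18 CPM in WT day 0 libraries. Its KO day 14 libraries differed widely among themselves but all stood above WT day 0 (log2 change 6.04 ± 0.80, adjusted p = 1.16e-05). Mmp14, a membrane-bound collagenase, had 1081, 845, 1021 and 950.0 CPM in KO day 14, against 121, 144, 153 and 148 CPM in WT day 0 (log2 change 2.78 ± 0.13). Mmp2 rose (log2 change 2.05 ± 0.14), Mmp19 (log2 change 2.47 ± 0.14) and Mmp23 (log2 change 1.81 ± 0.10). The inhibitor gene Timp1 rose (log2 change 2.44 ± 0.37), while Timp3, which is held in the matrix, had 292, 339.6, 522 and 279 CPM in KO day 14 and 1566, 1537, 1033 and 1156 CPM in WT day 0, lower in every library (log2 change -1.89 ± 0.19). Basement membrane genes gave 8 higher and 5 lower of 20 (median 0.17). Lamb1, a laminin chain, had 419, 409.8, 366 and 418 CPM in KO day 14, against 42.9, 39.4, 42.4 and 45.5 CPM in WT day 0 (log2 change 3.25 ± 0.14). Col4a1 and Nid1 rose (log2 changes 1.35 ± 0.16 and 1.24 ± 0.13). Hyaluronan genes gave 9 higher and 5 lower of 16 (median 0.81). Has2, the synthase, was not called (log2 change 0.05 ± 0.30, adjusted p = 0.903), while the hyaluronan-binding Vcan rose (log2 change 1.80 ± 0.18) and the hyaluronan clearance receptor gene Stab2 fell (log2 change -2.06 ± 0.25).

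**Figure D3:**
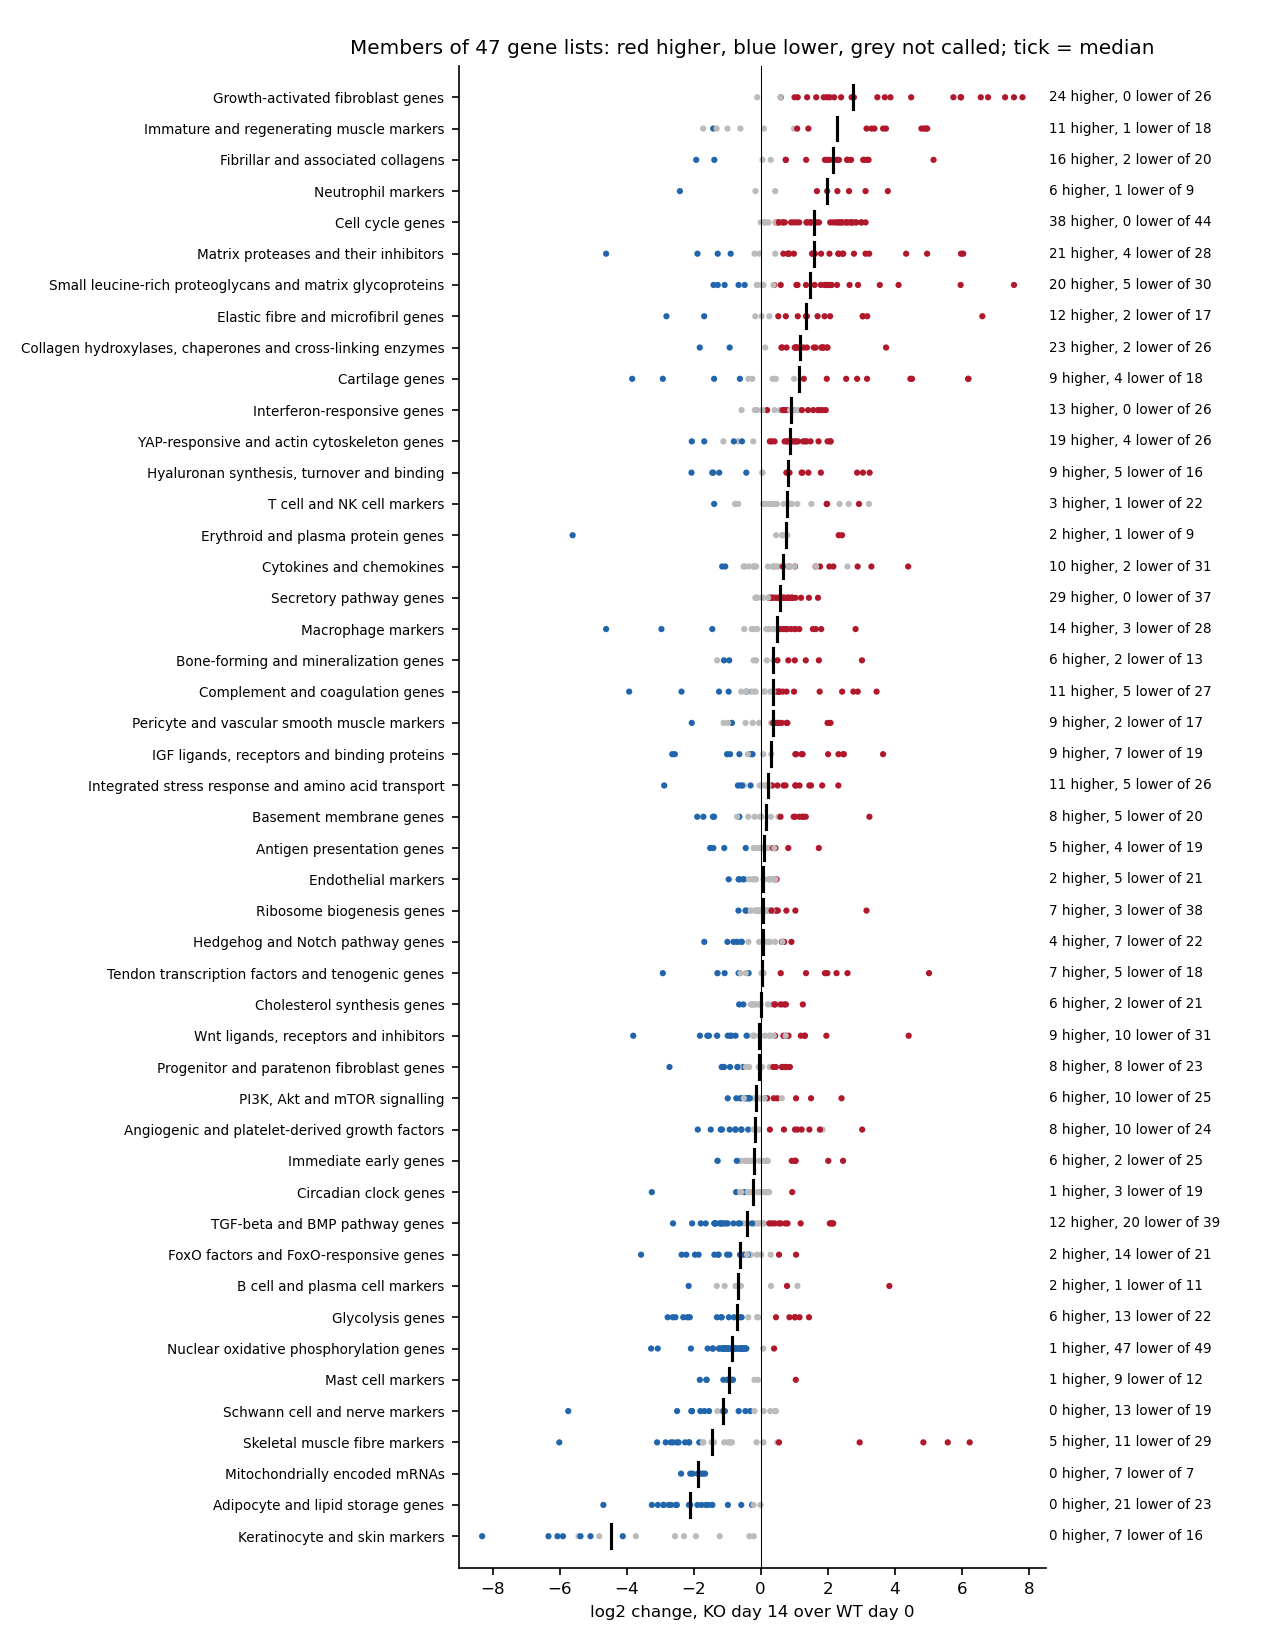
Log2 change (KO day 14 over WT day 0) of each tested member of the 47 gene lists, 1 list per line, with the list's median as a vertical tick and, at the right, the members called higher and lower of those tested. The medians of growth-activated fibroblast, collagen and cell cycle genes lie to the right of 0, and those of adipocyte, mitochondrial and Schwann cell genes to the left. Single members of some of these lists lie on the other side.

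Among growth factor pathways, TGF-beta and BMP genes had more lower than higher members. In the other lists of this paragraph the higher and lower counts differed by only a few genes. All are read against the 25.4% higher and 25.0% lower of all tested genes. Of 39 TGF-beta and BMP pathway genes, 12 were higher and 20 lower (median -0.40). The ligand genes Tgfb1 and Tgfb3 were not called (log2 changes 0.10 ± 0.17 and -0.16 ± 0.14; adjusted p = 0.651 and 0.358). Bmp2, a ligand that drives cartilage and bone formation, had 13.6, 17.0, 16.4 and 7.06 CPM in KO day 14 libraries, against 84.0, 106, 66.5 and 74.1 CPM in WT day 0 libraries. Gdf5, a ligand of joint and tendon development, had 5.13, 2.99, 5.02 and 5.33 CPM in KO day 14, against 8.59, 11.6, 10.3 and 8.91 CPM in WT day 0. Both genes were lower in every KO day 14 library (log2 changes -2.61 ± 0.27 and -1.09 ± 0.19). Smad3, which carries the TGF-beta signal, fell (log2 change -0.40 ± 0.09), while the secreted Fstl1 had 4213, 3897, 4017 and 3940.2 CPM in KO day 14 and 874, 969, 924 and 853 CPM in WT day 0 (log2 change 2.15 ± 0.11). In the Wnt list 9 of 31 were higher and 10 lower (median -0.03). Wnt4 had 0.326, 0.770, 0.267 and 0.943 CPM in KO day 14, against 6.36, 4.90, 9.35 and 12.0 CPM in WT day 0, lower in every library (log2 change -3.80 ± 0.54). The secreted Wnt inhibitor genes Sfrp1 and Sfrp2 rose (log2 changes 1.96 ± 0.23 and 1.32 ± 0.35), and the receptor gene Fzd4 fell (log2 change -0.87 ± 0.11). Of Hedgehog and Notch genes, 4 of 22 were higher and 7 lower (median 0.06). Gli1 and Ptch1, both read as targets of Hedgehog signalling, fell (log2 changes -0.99 ± 0.28 and -0.81 ± 0.15). Jag1, a Notch ligand, rose (log2 change 0.92 ± 0.08) and Hes1, a Notch target, fell (log2 change -0.71 ± 0.14). Vegfa, the main growth factor of blood vessels, and Fgf9 fell (log2 changes -0.75 ± 0.21 and -1.88 ± 0.24), and Hgf and Angpt2 rose (log2 changes 1.22 ± 0.17 and 1.45 ± 0.14), in a list with 8 higher and 10 lower of 24 (median -0.17).

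Actin genes and those that respond to YAP were mostly higher. Of 26 tested, 19 were higher and 4 lower (median 0.86). Acta2, smooth muscle actin, also made by contractile fibroblasts, had 288, 367, 417 and 295 CPM in KO day 14 libraries, against 81.9, 87.1, 90.6 and 82.8 CPM in WT day 0 libraries, without overlap (log2 change 2.0 ± 0.19). Actn1, Vcl and Flna, which tie actin filaments to adhesions and to each other, rose (log2 changes 1.49 ± 0.10, 1.27 ± 0.11 and 1.03 ± 0.10). Of the markers of pericytes and vascular smooth muscle, which share Acta2 with that list, 9 of 17 were higher and 2 lower (median 0.37). The higher count was 5 without WT day 0 replicate 1, and the lower count was 4 in limma-voom. Myh11, the smooth muscle myosin, rose (log2 change 0.80 ± 0.23), and Lmod1, a leiomodin, fell (log2 change -2.05 ± 0.22).

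Cartilage genes rose in some members and fell in others. Of 18 tested, 9 were higher and 4 lower (median 1.14), with log2 changes of members from -3.83 to 6.20. The list took 0.167 to 0.239 percent of all counts in KO day 14 libraries and 0.700 to 1.09 percent in WT day 0 libraries. Its share was thus lower in KO day 14, although the genes named next rose. Chad, given above with the tendon genes, is also a member and fell. It held most of the list's summed CPM in WT day 0 (7218 to 10428 CPM). The lower share therefore mostly follows Chad and does not describe the other members. Acan, aggrecan, had 336, 385, 802 and 1064 CPM in KO day 14 libraries, against 7.18, 11.9, 9.39 and 6.81 CPM in WT day 0 libraries. Col2a1, of type II collagen, had 10.4, 109.9, 63.6 and 568 CPM in KO day 14, against 1.74, 3.03, 2.69 and 2.65 CPM in WT day 0. Sox9, the transcription factor of cartilage, had 18.9, 23.4, 65.3 and 43.0 CPM in KO day 14, against 10.6, 10.2, 9.83 and 7.68 CPM in WT day 0. All KO day 14 libraries exceeded all WT day 0 libraries for each gene, but Col2a1 spread from its lowest in replicate 1 to its highest in replicate 4, and Sox9 was highest in replicate 3. Their log2 changes were 6.19 ± 0.45 (adjusted p = 1.08e-08), 6.20 ± 1.04 (adjusted p = 0.000129) and 1.97 ± 0.32 (adjusted p = 6.17e-05). Matn3, a cartilage matrilin, rose (log2 change 4.52 ± 0.48). Genes of bone formation gave 6 higher and 2 lower of 13 (median 0.38), and the higher count was 3 without KO day 14 replicate 3. Runx2 and Sp7, the transcription factors of osteoblasts, were not called (log2 changes 0.18 ± 0.22 and -0.14 ± 0.76; adjusted p = 0.529 and 0.899). Enpp1, which makes the mineral inhibitor pyrophosphate, rose (log2 change 1.74 ± 0.21), while Ank, which exports it, fell (log2 change -0.94 ± 0.12). Tnfsf11, the osteoclast ligand RANKL, rose (log2 change 3.02 ± 0.74) but lost its call in limma-voom.

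Of 26 growth-activated fibroblast genes, 24 were higher (median 2.75); several members of this list were known from earlier results of these data, so its direction is not independent evidence. C1qtnf6, of the same family as C1qtnf3, had 657, 529.8, 578 and 594 CPM in KO day 14 libraries, against 34.5, 41.5, 45.1 and 39.8 CPM in WT day 0 libraries, far apart (log2 change 3.87 ± 0.12). Progenitor and surface fibroblast genes gave 8 higher and 8 lower of 23 (median -0.06). Pdgfra, the receptor that marks most fibroblasts, and Ly6a were not called (log2 changes 0.04 ± 0.13 and -0.06 ± 0.14; adjusted p = 0.8 and 0.774). Gsn, gelsolin, which cuts actin filaments, had 2800.5, 3602, 3438 and 1301 CPM in KO day 14, against 19076, 19928, 16895 and 17504 CPM in WT day 0, lower in every library and lowest in KO day 14 replicate 4 (log2 change -2.72 ± 0.25). Dpp4 and Cd34, surface proteins of progenitor fibroblasts, fell (log2 changes -1.09 ± 0.22 and -0.52 ± 0.13), Dpt rose (log2 change 0.87 ± 0.12) and Cxcl12 (log2 change 0.66 ± 0.09).

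Cell cycle genes were higher at day 14 of growth. Of 44 tested, 38 were higher (median 1.59). Mki67, the proliferation marker Ki-67, had 52.6, 73.8, 49.8 and 85.2 CPM in KO day 14 libraries, against 14.4, 13.3, 9.95 and 10.3 CPM in WT day 0 libraries. Cdk1, the mitotic kinase, had 14.2, 19.1, 17.4 and 24.5 CPM in KO day 14, against 2.45, 2.59, 1.81 and 2.43 CPM in WT day 0. Ccnb2, a cyclin partner of that kinase, had 13.6, 24.9, 14.0 and 21 CPM in KO day 14, against 2.32, 2.23, 1.96 and 1.88 CPM in WT day 0. Both groups stood apart for each gene (log2 changes 2.45 ± 0.30, 3.02 ± 0.24 and 3.13 ± 0.24; adjusted p = 3.91e-06, 1.45e-08 and 6.18e-09). Rrm2 and Mcm2, of DNA replication, rose (log2 changes 2.16 ± 0.16 and 0.68 ± 0.24). Mcm2 overlapped between groups and lost its call without KO day 14 replicate 3 (adjusted p = 0.0612) or 4 (adjusted p = 0.0988) and without WT day 0 replicate 2 (adjusted p = 0.0626) or 3 (adjusted p = 0.0642). Against the earlier time, 34 of these genes were lower in KO day 14 than in KO day 7, where 8.57% of all tested genes were lower.

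Promoters of mitotic genes are known to hold CCAAT boxes and the element TTTGAA. Searched on both strands (ATTGG and TTCAAA on the other), at least 2 CCAAT stood in 17 of 38 cell cycle promoters (44.7%, 36 genes matched), against 11.7% of all 32851 RefSeq promoters of GRCm38.p6. TTTGAA stood in 44.7% of the cell cycle promoters and 17.9% of all. Overlap of matches was examined only in the promoters printed below, where no match overlapped another. The promoters of 3 genes that rose, all on the minus strand, show these letters in capitals: Ccnb2 at chr9:70421505-70421804, Cdk1 at chr10:69352863-69353162 and Ccnb1 at chr13:100786437-100786736.
Ccnb2: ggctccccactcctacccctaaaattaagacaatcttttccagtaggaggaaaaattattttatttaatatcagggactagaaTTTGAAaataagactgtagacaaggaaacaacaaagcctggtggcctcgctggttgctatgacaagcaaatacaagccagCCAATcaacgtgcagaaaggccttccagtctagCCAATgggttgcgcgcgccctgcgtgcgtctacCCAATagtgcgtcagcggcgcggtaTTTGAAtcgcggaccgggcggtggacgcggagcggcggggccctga
Cdk1: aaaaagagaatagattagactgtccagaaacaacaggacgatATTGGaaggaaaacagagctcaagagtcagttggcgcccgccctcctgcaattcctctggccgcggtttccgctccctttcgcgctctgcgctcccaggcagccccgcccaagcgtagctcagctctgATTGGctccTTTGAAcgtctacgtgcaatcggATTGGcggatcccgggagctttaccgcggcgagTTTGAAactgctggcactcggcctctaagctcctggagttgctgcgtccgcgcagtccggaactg
Ccnb1: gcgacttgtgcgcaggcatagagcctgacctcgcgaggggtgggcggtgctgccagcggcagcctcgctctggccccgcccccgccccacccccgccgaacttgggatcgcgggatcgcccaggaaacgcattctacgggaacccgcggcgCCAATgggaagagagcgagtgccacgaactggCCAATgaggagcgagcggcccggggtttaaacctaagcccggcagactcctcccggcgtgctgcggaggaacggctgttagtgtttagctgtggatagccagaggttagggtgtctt
They hold 3, 3 and 2 CCAAT boxes and 2, 2 and 0 TTTGAA, so the Ccnb1 promoter has CCAAT alone. Their genes rose (log2 changes 3.13 ± 0.24, 3.02 ± 0.24 and 3.0 ± 0.34). The letters are not measured binding sites.

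Genes of protein export were higher. Secretory pathway genes gave 29 higher of 37 (median 0.58). Kdelr3, which returns proteins to the endoplasmic reticulum, had 188, 190.2, 189 and 210.4 CPM in KO day 14 libraries, against 61.8, 65.7, 57.8 and 52.3 CPM in WT day 0 libraries, and Sec61a1, the channel into it, had 306, 339, 343 and 338 CPM in KO day 14, against 165, 173, 151 and 157 CPM in WT day 0. Each rose in every library (log2 changes 1.71 ± 0.10 and 1.04 ± 0.08). Hspa5, the chaperone BiP, was not called (log2 change 0.41 ± 0.18, adjusted p = 0.0634), but it was called with the compared groups fitted alone (adjusted p = 0.00231), with upper-quartile scaling (adjusted p = 0.0493) and with the replicate number as a block (adjusted p = 0.0492). Ribosome biogenesis genes gave 7 higher and 3 lower of 38 (median 0.08), Bop1 included, fewer in each direction than the 25.4% and 25.0% of all tested genes. The higher count was 13 without KO day 14 replicate 1, 4 without its replicate 4 and 11 with the compared groups fitted alone. Myc had 18.8, 30.3, 51.7 and 30.2 CPM in KO day 14, against 15.9, 15.8, 15.7 and 16.4 CPM in WT day 0, above it in every library (log2 change 1.04 ± 0.24), and Ncl, nucleolin, was not called (log2 change 0.21 ± 0.10, adjusted p = 0.0945), except without KO day 14 replicate 1 (adjusted p = 0.042) or with the compared groups fitted alone (adjusted p = 0.0473). Stress response and amino acid genes gave 11 higher and 5 lower of 26 (median 0.22), and the lower count was 3 without KO day 14 replicate 2 or WT day 0 replicate 2, 3 or 4, each left out singly. Pycr1 and Aldh18a1, which make proline, the amino acid collagen needs most, had 53.8, 56.5, 54.1 and 61.6 and 128, 134, 141 and 143 CPM in KO day 14, against 13.4, 10.3, 9.58 and 12.1 and 41.5, 38.8, 33.3 and 39.2 CPM in WT day 0. The groups of both were well apart (log2 changes 2.32 ± 0.14 and 1.84 ± 0.09). Slc7a5, a leucine transporter, rose (log2 change 1.04 ± 0.17), and Atf4 was not called (log2 change -0.03 ± 0.11, adjusted p = 0.84).

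Genes of respiration were lower. Of 49 nuclear genes of oxidative phosphorylation, 47 were lower and 1 higher (median -0.86), and all 7 mitochondrially encoded mRNAs tested were lower (median -1.88). The mitochondrial mRNA mt-Co1 had 4871, 5103, 4391 and 6637 CPM in KO day 14 libraries, against 14079, 12029, 18892 and 21218 CPM in WT day 0 libraries. Atp5a1, of ATP synthase, had 427, 489, 367 and 530.4 CPM in KO day 14, against 779, 619.5, 976 and 1166 CPM in WT day 0. For both genes all KO day 14 libraries lay below all WT day 0 libraries, with log2 changes of -1.66 ± 0.17 and -0.97 ± 0.15, and within WT day 0 replicate 2, which also had the lowest muscle share, was lowest. Cox6a2, a subunit made in striated muscle, fell (log2 change -2.08 ± 0.64), and Sdha, made in all tissues (log2 change -1.16 ± 0.13). With the muscle score as a covariate 47 nuclear and 7 mitochondrial genes were lower. That score averages fibre markers of which 5 were higher and 11 lower, so it need not follow muscle content. The part of muscle RNA in these falls was not tested. Glycolysis gave 6 higher and 13 lower of 22 (median -0.72). The muscle-rich Aldoa fell (log2 change -2.11 ± 0.34) and Ldhb (log2 change -2.54 ± 0.22), while Eno1 and the liver-type Pfkl rose (log2 changes 1.16 ± 0.16 and 1.03 ± 0.13). In KO day 14 replicate 3, with the lowest muscle share, Aldoa was also lowest (823, 1235, 508 and 1628 CPM in KO day 14 and 3950.4, 2622, 5523 and 6047 CPM in WT day 0).

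Fat genes were lower. Of 23 adipocyte and lipid storage genes, 21 were lower (median -2.11). Adipoq, adiponectin, had 22.6, 30.3, 22.8 and 10.3 CPM in KO day 14 libraries, against 198, 123, 126 and 127 CPM in WT day 0 libraries. Plin1, which coats lipid droplets, had 14.4, 17.1, 15.7 and 3.52 CPM in KO day 14, against 147, 81.8, 95.1 and 101 CPM in WT day 0. The highest KO day 14 library was below the lowest WT day 0 library for both (log2 changes -2.74 ± 0.45 and -3.07 ± 0.55; adjusted p = 9.94e-05 and 0.000238), and KO day 14 replicate 4 was lowest. Scd1, which desaturates fatty acids, and Pparg, the transcription factor of fat cells, fell (log2 changes -2.90 ± 0.30 and -1.76 ± 0.20). Cholesterol synthesis gave 6 higher and 2 lower of 21 (median -0.00). Hmgcs1, an enzyme early in that pathway, was not called (log2 change -0.25 ± 0.24, adjusted p = 0.394).

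**Figure D4:**
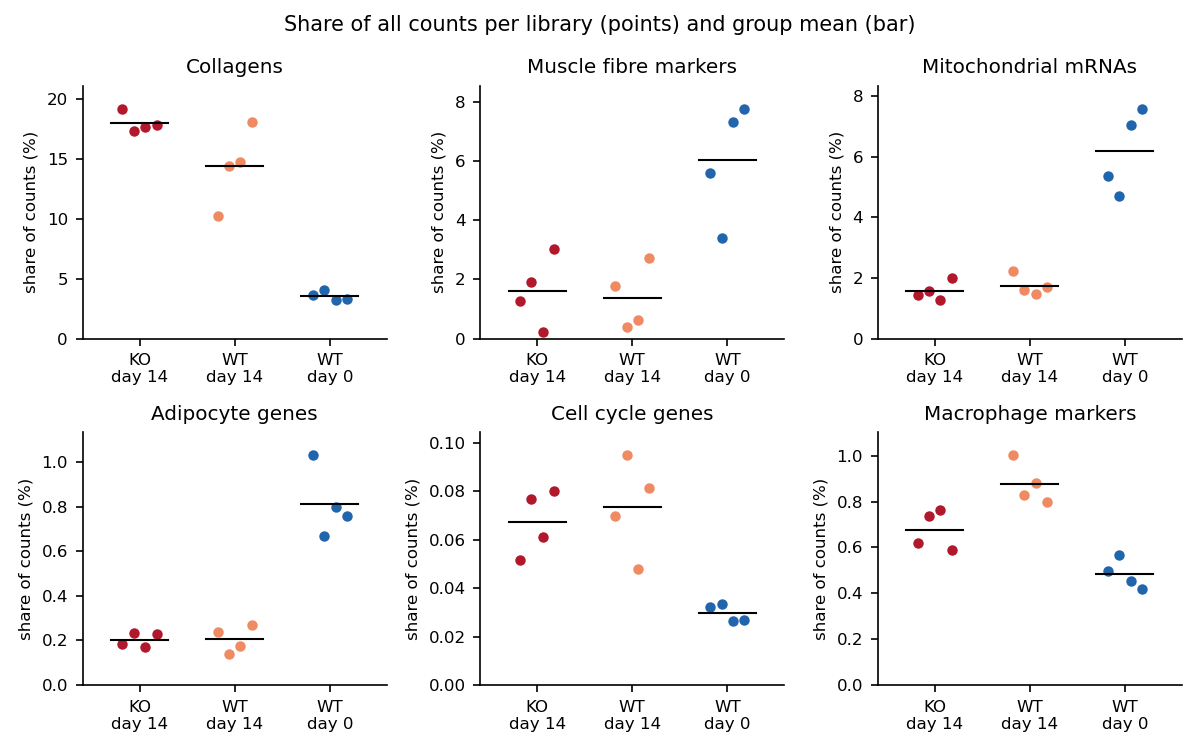
Share of all counts taken by 6 gene lists in each library, in percent with axes from 0, for KO day 14, WT day 14 and WT day 0 from left to right. Collagens took 17.3 to 19.2 percent in KO day 14 and 3.22 to 4.01 percent in WT day 0, and muscle fibre markers 0.204 to 3.02 percent in KO day 14 and 3.40 to 7.75 percent in WT day 0.

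Muscle genes moved in both directions, with a fast myosin lower and slow and immature genes higher. Of 29 fibre markers tested, 5 were higher and 11 lower (median -1.46). Myh4 had 113, 314, 21.8 and 364 CPM in KO day 14 libraries, against 12871, 7838, 16894 and 14668 CPM in WT day 0 libraries. All KO day 14 libraries lay below all WT day 0 libraries (log2 change -6.01 ± 1.05, adjusted p = 0.000188). The count of lower fibre markers was 7 without KO day 14 replicate 1, 2 or 3 or WT day 0 replicate 3 or 4, each left out singly. Myh1, the fast IIx myosin, was not called, with 1928, 2816, 271 and 5993 CPM in KO day 14 and 2493, 1348, 3115 and 5024 CPM in WT day 0 (log2 change -0.12 ± 0.85, adjusted p = 0.918), but with the muscle score as a covariate it was called higher (log2 change 0.90). Tnni1 and Tnnc1, slow troponins, rose (log2 changes 6.24 ± 0.90 and 5.58 ± 0.69). Immature and regenerating muscle genes gave 11 higher and 1 lower of 18 (median 2.29). Myh3, the embryonic myosin, had 243, 220.1, 26.7 and 310.0 CPM in KO day 14, against 3.91, 3.55, 5.37 and 16.0 CPM in WT day 0. Replicate 3, with the smallest muscle share, had the least in KO day 14 and still exceeded WT day 0 (log2 change 4.80 ± 0.92). Mymk, the fusion protein myomaker, and Myog, a muscle transcription factor, rose (log2 changes 4.87 ± 0.92 and 3.39 ± 0.77), though Mymk was not called in limma-voom, where 6 members of the list were higher.

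Markers of different immune cells went in different directions, and each list is read against the 25.4% of all tested genes that were higher and the 25.0% that were lower. Of 28 macrophage markers, 14 were higher and 3 lower (median 0.48), with log2 changes from -4.61 to 2.83. Csf1r overlapped between groups, with 328 to 489 CPM in KO day 14 and 364 to 412 CPM in WT day 0. Adgre1 and C1qa stood higher in every KO day 14 library than in any WT day 0 library. Cd68, of lysosomes, had 107, 117, 137 and 105 CPM in KO day 14 libraries, against 57.7, 58.7, 54.9 and 57.0 CPM in WT day 0 libraries. Trem2, of lipid-handling macrophages, had 59.8, 72.6, 76.5 and 52.3 CPM in KO day 14, against 20.4, 23.5, 20.5 and 19.2 CPM in WT day 0. Every KO day 14 library was above WT day 0 for both (log2 changes 1.03 ± 0.12 and 1.64 ± 0.13). Mrc1, of resident macrophages, was not called (log2 change 0.21 ± 0.24, adjusted p = 0.481), except with the compared groups fitted alone (adjusted p = 0.0209). Neutrophil markers gave 6 higher and 1 lower of 9 at low levels (median 1.99), with 3 higher in limma-voom. S100a9 had 3.20, 12.1, 6.57 and 8.24 CPM in KO day 14, against 0.428, 0.846, 0.208 and 0.626 CPM in WT day 0 (log2 change 3.79 ± 0.63), and Lcn2 fell (log2 change -2.41 ± 0.51). Mast cell markers gave 9 lower and 1 higher of 12 (median -0.95). Mrgprb1 and Ms4a2, of mast cells, fell (log2 changes -1.81 ± 0.35 and -1.61 ± 0.39).

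Lymphocyte markers were close to the limit of detection. T and NK cell markers gave 3 higher and 1 lower of 22 (median 0.77; 1 higher in limma-voom and 5 in DESeq2), with Cd3e at 0.771, 0.178, 0.475 and 0.357 CPM in KO day 14 and 0.673, 0.667, 0.958 and 0.530 CPM in WT day 0 and no call (adjusted p = 0.307). B cell and plasma cell markers gave 2 higher and 1 lower of 11 (median -0.68), and Ighm, the IgM heavy chain, fell (log2 change -2.15 ± 0.30). Cytokine genes gave 10 higher and 2 lower of 31 (median 0.66), and 6 were higher in limma-voom. Il6 had 0.504, 1.21, 4.69 and 2.32 CPM in KO day 14, against 0.459, 0.0488, 0.187 and 0.265 CPM in WT day 0, highest in KO day 14 replicate 3 (log2 change 3.31 ± 0.75), and Csf1, the macrophage growth factor, fell (log2 change -1.15 ± 0.19). Complement and coagulation genes gave 11 higher and 5 lower of 27 (median 0.38). C3, the central complement protein, fell (log2 change -1.24 ± 0.27), and F2r, the thrombin receptor, rose (log2 change 1.76 ± 0.15). Antigen presentation genes gave 5 higher and 4 lower of 19 (median 0.11), with 2 higher without KO day 14 replicate 3 or 4 or WT day 0 replicate 3 or 4, each left out singly.

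Interferon-responsive genes split the KO day 14 libraries. Of 26 tested, 13 were higher (median 0.89). Irf7, a regulator of the interferon response, had 8.77, 7.35, 50.9 and 64.2 CPM in KO day 14 libraries, against 10.6, 9.87, 14.1 and 9.72 CPM in WT day 0 libraries. Isg15, a ubiquitin-like interferon product, had 1.57, 1.24, 11.5 and 10.6 CPM in KO day 14, against 2.05, 1.37, 2.06 and 1.03 CPM in WT day 0. Replicates 3 and 4 were high, while replicates 1 and 2 lay within or below the WT day 0 range, so the groups overlapped (log2 changes 1.57 ± 0.63 and 1.94 ± 0.66; adjusted p = 0.0496 and 0.0217). Both calls were lost with the compared groups fitted alone (adjusted p = 0.117 and 0.0729), in limma-voom (adjusted p = 0.228 and 0.2), without KO day 14 replicate 3 (adjusted p = 0.133 and 0.0851) or 4 (adjusted p = 0.207 and 0.0763), and without WT day 0 replicate 2 (adjusted p = 0.0971 and 0.0526) or 4 (adjusted p = 0.104 and 0.0618). Irf7 lost it also without WT day 0 replicate 1 (adjusted p = 0.0919) or 3 (adjusted p = 0.0673), under RLE scaling, with no filter, with the muscle score and with the replicate block (adjusted p = 0.0512, 0.0662, 0.0693 and 0.0696). Without KO day 14 replicate 3 the list had 6 higher members, and it had 7 without KO day 14 replicate 4 or WT day 0 replicate 4. In limma-voom it had 7, and with the muscle score as a covariate or the compared groups fitted alone 8. Stat2 and Ddx58 were above WT day 0 in all 4 libraries (log2 changes 0.93 ± 0.27 and 0.78 ± 0.20).

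Nerve markers were lower, while shares of endothelial markers called were near or below those of all tested genes. Of 21 endothelial markers, 2 were higher and 5 lower (median 0.08), with 6 higher when the compared groups were fitted alone and 1 without KO day 14 replicate 2 or 3 or WT day 0 replicate 1. Pecam1 had 184, 210.2, 173 and 153 CPM in KO day 14 libraries, against 128, 137, 140.5 and 138 CPM in WT day 0 libraries (log2 change 0.41 ± 0.12). Kdr, the VEGF receptor, had 44.4, 49.0, 52.3 and 43.6 CPM in KO day 14, against 62.5, 66.8, 77.4 and 87.7 CPM in WT day 0 (log2 change -0.64 ± 0.16). Neither gene's groups overlapped, and they moved in opposite directions. Cdh5 was not called (log2 change 0.27 ± 0.19, adjusted p = 0.252). Schwann cell and nerve markers gave 13 lower of 19 (median -1.12). Sox10, the Schwann cell transcription factor, had 0.741, 0.800, 0.981 and 0.535 CPM in KO day 14, against 2.14, 4.33, 3.54 and 2.60 CPM in WT day 0. Every KO day 14 library was below every WT day 0 library (log2 change -2.05 ± 0.26, adjusted p = 2.49e-06). Red cell and plasma protein genes gave 2 higher and 1 lower of 9 (median 0.75), and the haemoglobin gene Hba-a1 was not called (adjusted p = 0.35).

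Clock and immediate early genes, which follow the hour and handling of sampling, were mostly not called. Clock genes gave 1 higher and 3 lower of 19 (median -0.23), and 7 were lower with the compared groups fitted alone. Per2 rose (log2 change 0.94 ± 0.31, a call that was lost by a narrow margin, at an adjusted p of 0.05, without KO day 14 replicate 3) and Nr1d1 fell (log2 change -0.73 ± 0.19), while Dbp and Arntl were not called (adjusted p = 0.893 and 0.505). Immediate early genes gave 6 higher and 2 lower of 25 (median -0.19). The lower count was 7 without KO day 14 replicate 3 and 1 without its replicate 1 or 2 or WT day 0 replicate 1. Fos had 17.6, 57.3, 130.1 and 266 CPM in KO day 14 libraries, against 294, 112, 77.7 and 53.9 CPM in WT day 0 libraries, with wide spread in both groups and no call (log2 change -0.19 ± 0.76, adjusted p = 0.856). Nr4a2 and Nr4a3, orphan nuclear receptors, rose (log2 changes 2.02 ± 0.24 and 2.46 ± 0.45).

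WT day 14 tendons share tamoxifen, stimulus and day with KO day 14, so setting them side by side shows how much of the change from WT day 0 differs with genotype. Against WT day 14, 201 genes were higher in the libraries labelled KO day 14 (1.06% of those tested) and 136 lower (0.719%). The total of 337 rested on single libraries: it was 1672 without WT day 14 replicate 4 and 152, 170 and 184 without its replicates 1, 2 and 3. Without KO day 14 replicates 1 to 4, each left out singly, it was 176, 198, 167 and 423. Igf1r, as shown above, was not lower in the libraries labelled KO, so these directions are read from the labels alone.

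Fabp2 (chr3:122895072-122899506, plus strand, GRCm38) had 16.9, 6.78, 7.79 and 18 CPM in libraries labelled KO day 14, 0, 0.0180, 0 and 0 CPM in those labelled WT day 14 and 0.0306, 0.0163, 0.0416 and 0.0481 CPM in WT day 0. Hal (chr10:93488768-93519304, plus strand), histidine ammonia-lyase, had 138, 169, 90.7 and 1.02 CPM in KO day 14, 0.483, 0.251, 0.420 and 0.302 CPM in WT day 14 and 0.367, 1.07, 0.541 and 2.74 CPM in WT day 0. Fabp2 was high in all 4 KO day 14 libraries, whereas Hal was high in replicates 1 to 3 and at the WT day 0 level in replicate 4. Their differences from WT day 14 were 10.55 ± 0.63 (adjusted p = 3.14e-09) and 8.11 ± 1.22 (adjusted p = 0.00188) on the log2 scale, and both of the calls of Hal, against WT day 14 and WT day 0, were lost in limma-voom. Adcy1, an adenylate cyclase, had 19.3, 20.3, 9.69 and 12.4 CPM in KO day 14, 3.16, 5.87, 5.66 and 3.25 CPM in WT day 14 and 27.0, 28.5, 28.6 and 26.1 CPM in WT day 0. It was thus between both WT groups, lower than WT day 0 (log2 change -0.84 ± 0.22) and higher than WT day 14 (log2 1.78 ± 0.23). Mgp, matrix Gla protein, which holds back mineral, had 262, 259.5, 396 and 277 CPM in KO day 14, 1283, 719, 1009 and 903 CPM in WT day 14 and 192, 264, 217 and 170.2 CPM in WT day 0. All KO day 14 libraries were below all WT day 14 libraries (log2 -1.71 ± 0.17, adjusted p = 3.53e-06), and they overlapped WT day 0. Cercam, a collagen-modifying enzyme relative, had 111, 168, 104 and 102 CPM in KO day 14, 217, 276, 245 and 324 CPM in WT day 14 and 258, 288, 239 and 229.7 CPM in WT day 0, lower in KO day 14 than in either WT group (log2 -1.13 ± 0.16 against WT day 14).

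Among the genes described above, few differed between both day 14 groups. Of the collagens 2 were higher in the libraries labelled KO day 14. Of the 19 IGF, 21 FoxO, 44 cell cycle and 49 oxidative phosphorylation genes, 0 were called by edgeR or limma-voom. Over all tested genes edgeR called only 1.06% higher and 0.719% lower. At those shares lists of this size hold few or no calls, so the 0 does not set these lists apart. At an unadjusted p below 0.05 in edgeR, which 16.7% of all tested genes reached, 5 IGF genes were higher and 1 lower, 2 FoxO genes lower, 1 cell cycle gene higher and 3 lower, and 5 oxidative phosphorylation genes lower. DESeq2 called 1 IGF gene higher and 1 FoxO gene lower. Col5a1 was higher in KO day 14 (log2 0.73 ± 0.18, adjusted p = 0.0434), as were Loxl2 (log2 0.52 ± 0.12) and Sesn2 (log2 0.87 ± 0.14). H2-Aa, of MHC class II, had 244, 324, 308 and 344 CPM in KO day 14, 130.4, 172, 179 and 223 CPM in WT day 14 and 238, 282, 170.4 and 222 CPM in WT day 0. It was above WT day 14 (log2 0.79 ± 0.16, adjusted p = 0.0157), as was Ciita, the master regulator of that class (log2 1.26 ± 0.22), and 4 of the 19 antigen presentation genes were higher. With the compared groups fitted alone, the calls of Col5a1, Loxl2, Sesn2, H2-Aa, Rpl3 and Hal against WT day 14 were lost. With 1 library left out, Col5a1 lost it without any 1 of the KO day 14 libraries or WT day 14 replicate 2 or 3 (adjusted p = 0.0644 to 0.1) and Loxl2 without any 1 of the KO day 14 libraries or WT day 14 replicate 1 (adjusted p = 0.0562 to 0.124). H2-Aa lost it without WT day 14 replicate 1 or 2 (adjusted p = 0.0623 and 0.0501). Nr1d1, a clock repressor, whose level follows the hour of the day, was higher (log2 1.36 ± 0.19). The ribosomal protein gene Rpl3 and the chromatin gene Hmgn2 were lower (log2 -1.42 ± 0.30 and -1.41 ± 0.15), and both have processed copies elsewhere in the genome that can share reads. Rpl3 lost its call without KO day 14 replicate 2 (adjusted p = 0.0506) and without WT day 14 replicate 1, 2 or 3 (adjusted p = 0.0627, 0.0508 and 0.0509).

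**Figure D5:**
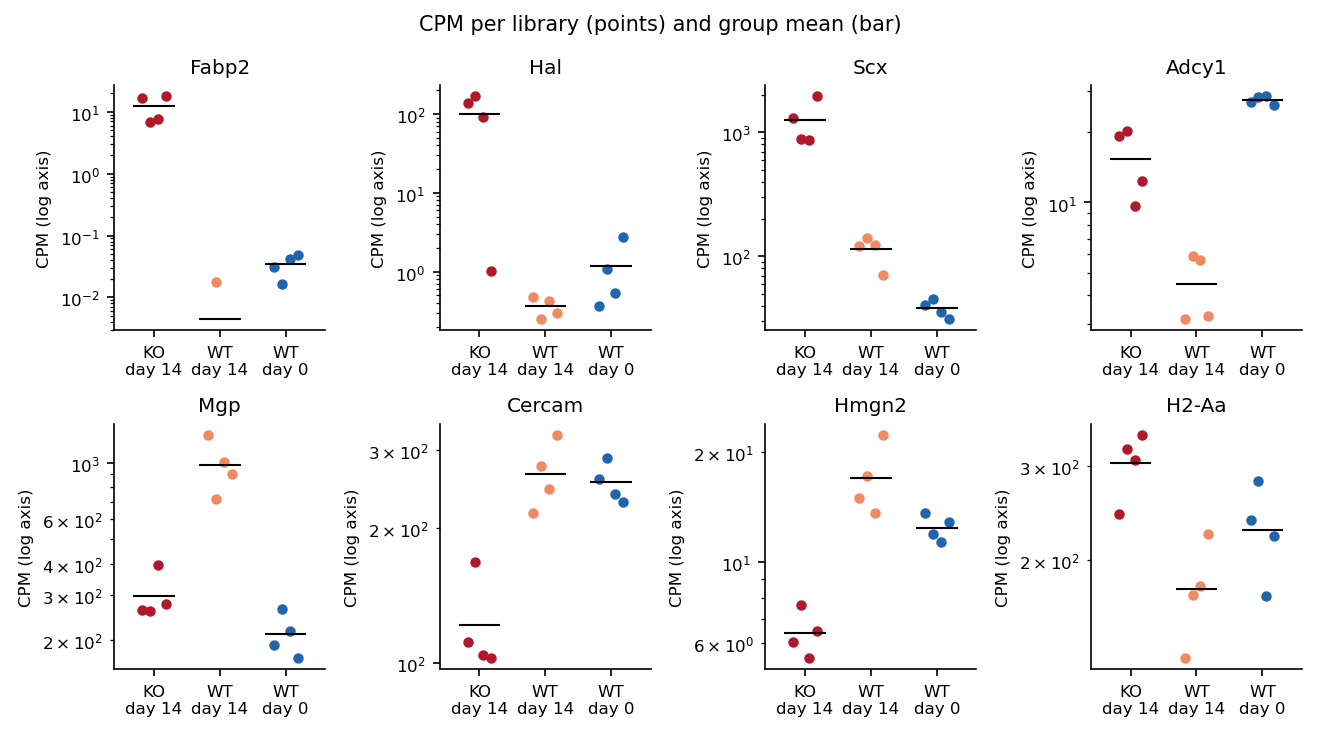
CPM per library on log axes for 8 genes in KO day 14, WT day 14 and WT day 0, from left to right; points are libraries and bars are means (n = 4 each). Libraries at 0 CPM cannot be drawn on a log axis, which leaves out 3 WT day 14 libraries for Fabp2. Fabp2 stands above both WT groups in all 4 libraries labelled KO day 14 and Hal in 3 of them, while Mgp, Cercam and Hmgn2 are lower in KO day 14 than in WT day 14, and Adcy1 lies between both WT groups.

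Both day 14 groups were also set against the same WT day 0 libraries, which they share as controls, so the paired values are given without a test of their likeness. On the log2 scale, Cthrc1 changed by 7.56 ± 0.24 in KO day 14 and 8.20 ± 0.24 in WT day 14, Col3a1 by 3.22 ± 0.15 and 2.91 ± 0.14, and Mki67 by 2.45 ± 0.30 and 2.29 ± 0.30. On the same scale Tnmd changed by 2.27 ± 0.28 in KO day 14 and 3.02 ± 0.29 in WT day 14, and Chad by -2.92 ± 0.38 and -2.99 ± 0.38. Adipoq changed by -2.74 ± 0.45 and -3.04 ± 0.46, and Igf1r by -0.24 ± 0.08 and -0.47 ± 0.08, lower in both.

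Between days 7 and 14 in KO tendon, 1341 genes were higher (7.09%) and 1621 lower at day 14 (8.57%), so part of the tendon transcriptome still differed between these days. Of the 2962 calls in all, leaving out KO day 14 replicate 1 gave 1693 and leaving out KO day 7 replicate 2 gave 1885. Tnmd had 892, 585, 1103 and 942 CPM at KO day 14 and 235, 177, 240.3 and 249 CPM at KO day 7, higher at the later day in every library (log2 1.96 ± 0.28, adjusted p = 0.000276). Matn4, a matrilin, and Wnt16 rose (log2 changes 2.68 ± 0.47 and 1.96 ± 0.52). Arg1, arginase of repair macrophages, and Mmp9, a gelatinase of neutrophils and macrophages, fell (log2 changes -4.94 ± 0.79 and -4.99 ± 0.87), and neither was called between KO day 14 and WT day 0 (adjusted p = 0.671 and 0.679). Of the macrophage markers, 16 were lower at KO day 14 than at KO day 7, of cytokine genes 17 and of antigen presentation genes 12, while 16 of the 30 matrix glycoproteins and proteoglycans were higher.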

How the data were processed

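RNA was sequenced from mouse plantaris tendon in 20 libraries, 4 in each of 5 groups taken from the labels. The authors deposited a table of raw counts for 24885 genes and an edgeR table with log2 fold changes, average log2 CPM, p-values and FDR. The submitters' processing notes name FastQC, STAR, edgeR and mm10, while the counting tool, annotation, strand setting and filter are not stated in any source used here. Every gene in the count table has at least 21 counts over all libraries. Counting error limits the precision of genes with few counts.

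From the counts, genes were filtered with filterByExpr, scaled with TMM and fitted in edgeR 4.0.16 (R 4.3.3) with 1 mean per group over all 20 libraries. The quasi-likelihood test with Benjamini-Hochberg adjustment over all tested genes gave the calls (adjusted p below 0.05). Standard errors come from the log2 change and F. Igf1r and Scx were also compared by two-sided exact permutation tests. The fit was tested on simulated data.

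Members and lists were chosen with earlier results of these data known. The rule for named genes takes Igf1r, Scx and Bop1 and up to 15 largest rises and falls at 5 CPM or more without overlap between the 8 libraries, leaving out predicted and unnamed genes. It adds each list's anchor genes with up to 4 called members of smallest p (2 where none was called), and up to 8 genes per direction from each of the other comparisons. Some genes that the rule takes are not reported here. Gene positions come from GENCODE vM21 on GRCm38, promoters from RefSeq.

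Settings also tried were upper-quartile and RLE scaling, an open or stricter filter (1 CPM in 4 libraries), DESeq2 1.42.0, limma-voom (limma 3.58.1), the compared groups alone, a replicate block, a muscle score (mean log2 CPM of the fibre markers) as covariate, and leaving out each replicate. All pairs of libraries in a group differed beyond sampling noise, with a chi-square of at least 15.4 per degree of freedom.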

Additional observations from a re-analysis of the deposited data

Results flagged for a closer look

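Among 406 groups of 4 libraries examined (the CPM of each gene named, in KO day 14 and in WT day 0), 24 had a library far from the others by Dixon's test, 12 in each group, where chance alone gives about 1 in 20. In KO day 14, replicate 1 was highest for Sfrp2 (341 CPM) and lowest for Sec61a1 (306 CPM). Replicate 2 was highest for Cercam (168 CPM) and lowest for Pik3r3 (35.5 CPM) and Gdf5 (2.99 CPM). Replicate 3, which had the smallest muscle share, was lowest for Tnnc1 (6.95 CPM), Klf15 (2.76 CPM) and Ldhb (3.89 CPM) and highest for Mgp (396 CPM). Replicate 4 was highest for Kdelr3 (210.4 CPM) and Sfrp1 (319.9 CPM) and lowest for Thbs4 (9258 CPM).

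In WT day 0, replicate 1 was highest for the fat cell genes Adipoq (198 CPM) and Pparg (22.7 CPM) and for Vcan (201 CPM), Angpt2 (7.74 CPM) and Ccnb1 (1.25 CPM). Replicate 2 was highest for Fn1 (4027 CPM), Rpl3 (43.0 CPM) and Sp7 (2.98 CPM). Replicate 3 was highest for Igfbp3 (218 CPM). Replicate 4 was highest for Krt2 (39.9 CPM) and Myh3 (16.0 CPM) and lowest for Sfrp1 (43.8 CPM).

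Among the genes named, the change from WT day 0 differed between KO day 14 and WT day 14 for 15 by edgeR's test of the difference, which is the test of KO day 14 against WT day 14 that called 337 genes in all. The log2 change was more positive in KO day 14 by 10.55 for Fabp2, 8.11 for Hal, 3.45 for Scx, 2.40 for Bop1, 1.78 for Adcy1, 1.36 for Nr1d1, 1.26 for Ciita, 0.87 for Sesn2, 0.79 for H2-Aa, 0.73 for Col5a1 and 0.52 for Loxl2. KO day 14 minus WT day 14 was -1.71 for Mgp, -1.42 for Rpl3, -1.41 for Hmgn2 and -1.13 for Cercam. Adcy1 and Nr1d1 fell in KO day 14 and less than in WT day 14.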

How the results depend on the processing

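For KO day 14 against WT day 0, the count of 9519 genes lay between 8467 and 9805 under every alternative run, and each alternative called at least 8307 of the same genes. No setting moved the median of all genes by more than 0.03 log2. Same-numbered libraries of these groups did not vary together (r = -0.04, -0.10, -0.16 and 0.12), so the numbers do not pair them, and with the number as a replicate block 9665 genes were called. KO day 14 against WT day 14 depended most on the setting. DESeq2 called 759 genes (465 higher, 294 lower), and the compared groups alone 86 (52 higher, 34 lower). Leaving out 1 library gave 152 to 1672 genes (90 to 855 higher, 62 to 817 lower). For KO day 14 against KO day 7, leaving out 1 library gave 1693 to 2956 genes (746 to 1459 higher, 947 to 1497 lower). The causes were not tested.

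The Igf1r difference between KO day 14 and WT day 14 was 3.77 CPM with CPM from total counts (exact permutation p = 0.229). With 1 library left out it was 5.32 to 8.86 CPM, and the Scx difference was 974.7 to 1341 CPM against WT day 0 and 899 to 1265 CPM against WT day 14. These tests of 3 against 4 libraries cannot give a p below 0.0571.

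Of 215 gene values, 10 reversed somewhere, and these genes were not called against WT day 0 in the fit reported. With the muscle covariate the log2 changes were -0.0097 for Fmod, -0.11 for Has2, -0.27 for Igfbp3, -0.041 for Pdgfra and 0.90 for Myh1, which was called higher there (adjusted p = 0.00629), and in limma-voom -0.046 for Has2 and -0.097 for Igfbp3. With 1 library left out they ranged from -0.064 to 0.021 for Atf4, -0.16 to 0.023 for Dbp, -0.091 to 0.087 for Fmod, -0.97 to 0.54 for Fos, -0.19 to 0.25 for Has2, -0.35 to 0.34 for Igfbp3, -0.096 to 0.014 for Ly6a, -0.84 to 0.26 for Myh1, -0.026 to 0.14 for Pdgfra and -0.66 to 1.15 for Sp7.

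Depth limits genes of a few counts per library, such as the lymphocyte markers.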
